A study of Mus musculus with 4 samples.

Results

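*Egln3*, *Pgk1*, *Vegfa*, *Adm* and *Ddit4* are induced by the hypoxia-inducible factor (HIF) and are described here in mouse embryonic stem cells (mESCs) after knockdown of the homeobox gene *Rhox6*. These 5 genes were chosen by name from a deposited table of 920 genes, with their difference between the groups already known. The levels of all 5 were lower in *Rhox6* shRNA cells than in *scramble* cells, from 2.20-fold lower for *Pgk1* to 8.40-fold lower for *Adm*. The cells were 46C mESCs, a line with a fluorescent reporter in the neural gene *Sox1*. One group was infected with *scramble* control lentivirus and the other with *Rhox6* shRNA lentivirus, with 2 RNA-seq libraries each, and both groups were kept in medium with serum for 24 h. Infected cells were screened with drugs according to the study's methods, whose mESC medium also contains LIF, which the labels of these samples do not name. The study describes a pair of *Rhox6* hairpins. The labels of the knockdown libraries do not name one, whereas the table heads the mean of both libraries Rh6_Sh1.

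HIF is a transcription factor made of an oxygen-labile α subunit and the stable subunit ARNT. When oxygen is present, prolyl hydroxylases such as EGLN3 mark the α subunit for destruction through VHL. When oxygen falls, HIF binds a short element in its target genes and induces enzymes of glycolysis, angiogenic factors, regulators of growth and its own hydroxylases, which makes a feedback loop. Pluripotent cells rely strongly on glycolysis even in the presence of oxygen, and the glycolytic genes are highly transcribed in them. Such genes also answer to other signals, and *Ddit4* and *Vegfa* are induced by ATF4 in stressed cells.

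The table lists only genes that the authors had called as changed in these same libraries, so the values of the 5 genes are given as a description, with no test. For each gene the table holds a normalized expression level in each library, whose unit is not given, and the depth of the libraries is unknown. Levels of different genes are therefore not compared here, and a sum over a marker list is compared only between libraries. By limma on log2(level + 1), with Benjamini-Hochberg adjustment over the 920 genes, 42.9% of the listed genes were lower and 53.7% were higher at an adjusted p under 0.05, and the counts of lower and higher genes in the lists below stand beside these shares. *Rhox6* is not among the 920 genes, so the labels could not be checked by the targeted gene. Of 16 markers of mESCs, 5 were listed, *Nanog*, *Klf4*, *Tbx3*, *Prdm14* and *Nr5a2*, and all 5 were higher. *Nanog* was at 125.72 and 126.54 in *scramble* and 314.24 and 331.47 in *Rhox6* shRNA cells. *Tbx3* was at 31.36 and 28.12 against 97.12 and 90.09, and *Klf4* at 18.28 and 16.51 against 39.57 and 40.95. The study checked its sequencing candidates by qRT-PCR and names *Nanog* among the exceptions that did not behave as anticipated. Its qRT-PCR of cells cultured without LIF did give higher *Nanog* after knockdown. *Pou5f1*, *Sox2* and the other markers were not analysed here. Whether the replicates were grown separately is not stated, and the spread between them may be technical.

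The element that HIF binds has the core ACGTG or GCGTG, which was searched on both strands in the promoters of these genes. The windows came from RefSeq on GRCm38.p6 and reach from 250 bases before to 50 bases after a start site, and for each gene the window nearest to its annotated GENCODE start was used. The core was found in the windows of 4 of the 5 genes. The stretches around the matches are shown because they show how the matches are spaced. They are written 5′ to 3′ on the strand of the gene, with each match in capitals. CACGT and CACGC are ACGTG and GCGTG on the opposite strand. The *Pgk1* stretch lies at chrX:106186935-106186988 on the + strand, the *Ddit4* stretch at chr10:59951866-59951972 on the - strand, the *Egln3* stretch at chr12:54204084-54204118 on the - strand and the *Adm* stretch at chr7:110627552-110627622 on the + strand.
*Pgk1*: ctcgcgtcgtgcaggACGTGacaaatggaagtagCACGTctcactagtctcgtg
*Ddit4*: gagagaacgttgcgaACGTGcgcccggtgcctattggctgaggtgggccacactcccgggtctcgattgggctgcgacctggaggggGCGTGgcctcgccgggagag
*Egln3*: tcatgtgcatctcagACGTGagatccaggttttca
*Adm*: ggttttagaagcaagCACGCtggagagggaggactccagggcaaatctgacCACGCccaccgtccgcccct

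In the *Pgk1* promoter the matches began 150 and 131 bases before the start site and faced each other on opposite strands. In *Ddit4* they began 187 and 115 bases before it, both on the strand of the gene. *Adm* had its matches 90 and 54 bases before the start site, both of the GCGTG form on the opposite strand, and *Egln3* had a single match 229 bases before it. The *Vegfa* window at its annotated start held none, which says only that these letters are not in this window. A second RefSeq start of *Vegfa*, 7206 bases inside the gene, had 2 matches before it at chr17:46025355-46025396 on the - strand. Both lie within a coding exon, and this stretch is shown for that contrast.
*Vegfa*, internal start: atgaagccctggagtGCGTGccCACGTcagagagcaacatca
The core is common. It was found in 43.8% of all 32851 RefSeq windows of this length and in 53.7% of the 611 listed genes with a window, against 4 of these 5 genes. The ACGTG form was found in 19.6% of all windows and in 3 of the 5. The windows of the 5 genes had a GC content of 54.7% to 69%, against a median of 52.7% over all windows, and its part in these matches was not tested. A match is a description of the letters and not a binding site.

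**Figure D1:**
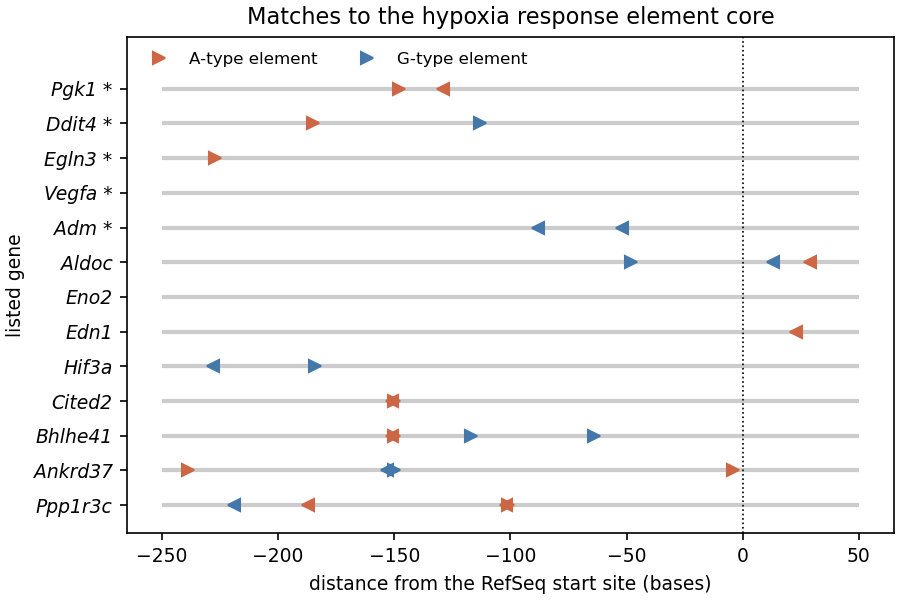
Matches to the core of the hypoxia response element in 1 promoter window for each listed low-oxygen gene that had one. The x axis is the distance in bases from the RefSeq start site, arrowheads point along the strand of each match (right, the strand of the gene), A-type stands for ACGTG and G-type for GCGTG, and asterisks mark the 5 genes. *Pgk1*, *Ddit4*, *Egln3* and *Adm* hold 1 or 2 matches each, all before the start site, while *Vegfa* and *Eno2* hold none.

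*Egln3* (ENSMUSG00000035105), an oxygen-sensing prolyl hydroxylase that is itself a HIF target, is found on the - strand of chromosome 12 (GRCm38, 54178981 to 54203860). Its level in *scramble* cells was 46.99 in replicate 1 and 50.39 in replicate 2, against 15.34 and 13.53 after *Rhox6* knockdown. Both knockdown libraries were below both controls, and each of the 4 pairs of a knockdown and a control library put the level between 26.9% and 32.6% of the control. The mean was 3.37-fold lower, and the difference of log2(level + 1), *Rhox6* shRNA minus *scramble*, was -1.69 (standard error 0.094). Standard errors here are from limma, which draws the variance of each gene toward a trend over all listed genes. They therefore do not measure the spread of its own replicates alone. Of the 19 genes of oxygen sensing considered, *Cited2* and *Hif3a* were listed besides *Egln3*. *Cited2*, which is induced by HIF and competes with it for the coactivator p300, rose from 54.36 and 56.33 to 130.37 and 135.53. *Hif3a*, which encodes a HIF α subunit that can restrain the others, was at 7.99 and 6.97 in *scramble* cells, against 5.53 and 2.09 after knockdown, both below both controls as for *Egln3*. Its log2 difference of -0.91 did not pass the test (limma adjusted p = 0.0541 over the 920 genes). Its knockdown libraries lay far apart, and its log2 difference was -1.45 without *Rhox6* shRNA replicate 1 and -0.37 without *Rhox6* shRNA replicate 2.

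*Pgk1* (ENSMUSG00000062070) encodes phosphoglycerate kinase, which makes ATP in glycolysis, and is found on the + strand of chromosome X (106187100 to 106203699). Its level in *scramble* cells was 1549.09 in replicate 1 and 1491.53 in replicate 2, against 698.48 and 682.47 after *Rhox6* knockdown. The groups did not overlap, as for nearly all listed genes, and the replicates of each differed by far less than the groups did. The level in knockdown cells was 44.1% to 46.8% of a control library, the highest share kept among the 5 genes, with a log2 difference of -1.14 (standard error 0.034). *Pgk1* has processed pseudogenes. With a minimum of 90% identity over 100 bases, the annotated transcripts of 4 pseudogenes matched its transcript, and *Gm5537* and *Pgk1-rs7* matched it at 100% over 1252 and 1255 bases. None of the 4 was listed, and reads of *Pgk1* may have been shared with them, which was not tested. No other gene reached this similarity to the other 4 genes.

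Of 26 genes of glycolysis and glucose use, 3 were listed, and all 3 were lower, against 42.9% of all listed genes. Besides *Pgk1* these were the enolase gene *Eno2*, which fell from 19.04 and 16.78 to 3.95 and 6.99, and the aldolase gene *Aldoc*, which fell from 19.82 and 20.19 to 9.87 and 10.62. *Eno2* was 3.27-fold and *Aldoc* 1.95-fold lower on average. The replicates of *Eno2* were further apart than those of *Pgk1*. On the log2(level + 1) scale, replicate 2 minus replicate 1 of *Eno2* was -0.17 in *scramble* and 0.69 in *Rhox6* shRNA cells. For *Pgk1* these differences were -0.055 and -0.033. The limma standard error of *Eno2* was 0.24. The other 23 genes, among them *Slc2a1*, *Hk2*, *Ldha* and *Pdk1*, were not among the genes that the authors called as changed. They were not analysed here.

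*Vegfa* (ENSMUSG00000023951), the main angiogenic growth factor, is found on the - strand of chromosome 17 (46016993 to 46032369). Its level in *scramble* cells was 35.97 in replicate 1 and 36.57 in replicate 2, against 14.36 and 14.33 after *Rhox6* knockdown. It had the closest replicates of the 5 genes, and each knockdown library was at 39.2% to 39.9% of a control library. The mean was 2.53-fold lower (log2 difference -1.28, standard error 0.074). The annotation gives it 13 transcripts, and the levels are per gene, so they do not say which isoforms were lower. Of 15 ligands and receptors of the VEGF and angiopoietin families, the receptor genes *Tek* and *Kdr* were listed besides *Vegfa*, and both rose. *Tek* rose from 4.36 and 3.49 to 11.51 and 11.83, and *Kdr* from 0.09 and 0.16 to 0.38 and 0.50. The call of *Kdr* was lost without *scramble* replicate 1 (limma adjusted p = 0.0589, log2 difference 0.31).

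*Adm* (ENSMUSG00000030790) encodes the precursor of adrenomedullin, a secreted peptide that dilates blood vessels, and is found on the + strand of chromosome 7 (110627661 to 110629820). Its level in *scramble* cells was 6.40 in replicate 1 and 7.29 in replicate 2, against 0.84 and 0.79 after *Rhox6* knockdown. The knockdown libraries kept 10.8% to 13.1% of the level of a control library, the lowest share among the 5. The log2 ratio of the means was -3.07, while the difference of log2(level + 1) was -2.11 (standard error 0.13), because the added 1 weighs on so low a level. Counted from the largest decrease, *Adm* was number 2 of the 417 listed genes with a negative difference on that scale and number 7 of the 416 with a lower mean level by the ratio of the means. Of 12 genes of the adrenomedullin and calcitonin peptides and their receptors, 3 were listed, and all 3 were lower, against 42.9% of all listed genes. *Ramp2*, which turns the calcitonin receptor-like receptor into an adrenomedullin receptor, fell from 6.74 and 6.85 to 3.46 and 3.49. *Adm2*, a related peptide, fell from 1.43 and 2.20 to 0.63 and 0.53.

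Of 20 secreted factors induced by HIF, 4 were listed, and they did not all go the same way. Besides *Vegfa* and *Adm*, the stanniocalcin gene *Stc1* fell from 2.10 and 2.13 to 0.76 and 0.79. *Edn1*, which encodes the vasoconstrictor endothelin, rose from 0.03 and 0.13 in *scramble* to 1.38 and 1.53 in *Rhox6* shRNA cells.

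*Ddit4* (ENSMUSG00000020108), also called REDD1, inhibits the growth kinase complex mTORC1 under low oxygen and other stresses, and is found on the - strand of chromosome 10 (59949669 to 59951834). Its level in *scramble* cells was 245.77 in replicate 1 and 255.32 in replicate 2, against 94.34 and 84.37 after *Rhox6* knockdown. The groups did not overlap, and each knockdown library was at 33.0% to 38.4% of a control library. The mean was 2.80-fold lower (log2 difference -1.48, standard error 0.070). Of 25 genes of mTORC1 regulation, 3 were listed. The paralog *Ddit4l*, which also inhibits mTORC1, went the other way and rose from 6.80 and 5.13 to 14.70 and 17.54. *Castor2*, of the same list, fell from 4.31 and 4.25 to 2.10 and 2.36.

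Of 30 HIF-induced genes of stress, metabolism and transcription, 6 were listed, and all 6 were lower, against 42.9% of all 920 listed genes. The transcriptional repressor genes *Bhlhe40* and *Bhlhe41* fell from 22.17 and 23.61 to 9.09 and 7.89 and from 1.47 and 1.24 to 0.37 and 0.33. *Ankrd37*, whose promoter is a known direct target of HIF, fell from 26.74 and 22.89 to 9.23 and 8.32. *Cox4i2*, a subunit of cytochrome oxidase used in low oxygen, fell from 5.42 and 4.81 to 1.65 and 2.04. *Ppp1r3c*, which targets a phosphatase to glycogen, fell from 1.60 and 1.65 to 0.74 and 0.86. Over the 8 lower low-oxygen genes besides the 5, the mean level was 1.95- to 3.87-fold lower, and the 8.40-fold difference of *Adm* lay outside this range.

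**Figure D2:**
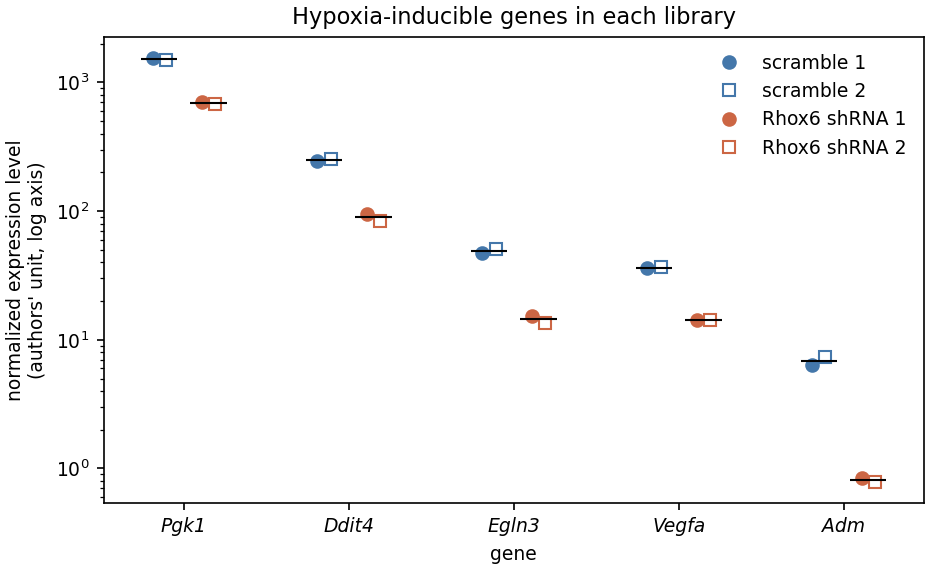
Normalized expression level of the 5 genes in each library, on a log axis in the authors' unit. Blue symbols are the 2 *scramble* and red symbols the 2 *Rhox6* shRNA libraries (filled circle, replicate 1; open square, replicate 2), and horizontal lines are group means. For every gene both knockdown libraries lie below both controls, and the widest gap on this axis is that of *Adm*, between 6.40 and 0.84.

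Both *Rhox6* shRNA libraries were below both *scramble* libraries for 5 of these 5 genes, against 44.2% of the 920 listed genes. Both were above both *scramble* libraries for 54.1%, so the groups overlapped for few listed genes. The 5 genes are among the 42.9% that were lower by limma. They were chosen with their lower levels already known, so nothing follows from that count. Over the 4 low-oxygen groups above, which hold 95 symbols, 16 genes were listed. Of these, 13 were lower, against 42.9% of all listed genes, 2 (*Cited2* and *Edn1*) were higher and *Hif3a* did not pass. The median log2 difference of the 16 was -1.12, against 0.56 over all 920. Without the 5 genes, 8 of 11 were lower and the median was -0.90. These genes were listed because the authors had called them in the same libraries, and the lists were made with earlier results known. The other 79 of the 95 symbols were not among the called genes and were not analysed here. The counts therefore describe the listed genes and not the whole response to low oxygen.

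**Figure D3:**
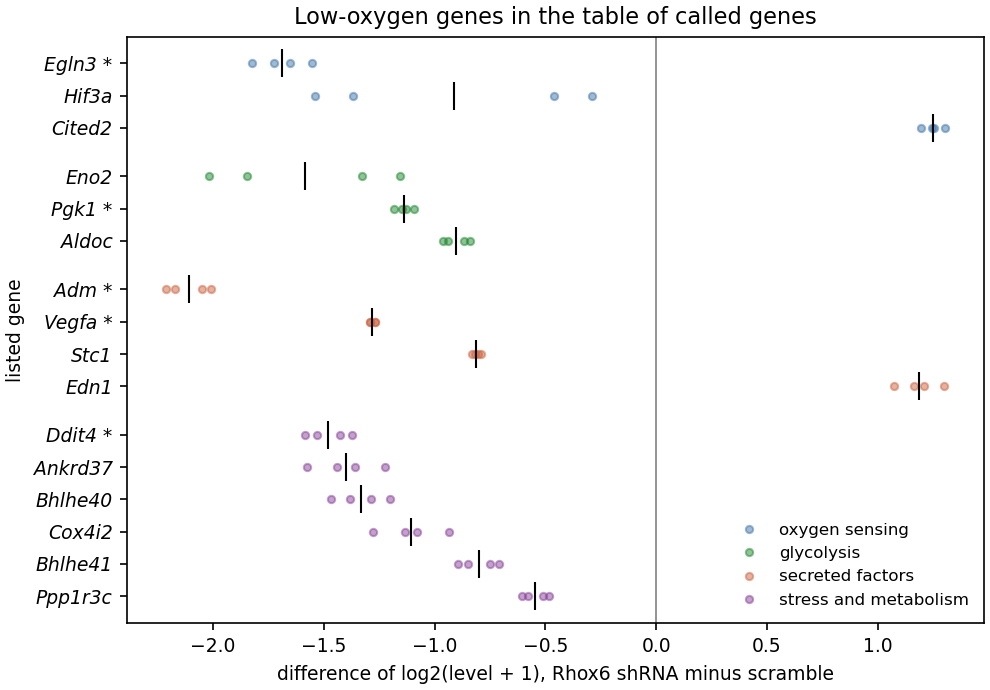
Difference of log2(level + 1), *Rhox6* shRNA minus *scramble*, for the 16 listed low-oxygen genes by role. Points are the 4 pairs of a knockdown and a control library, black ticks the difference of the group means, and asterisks mark the 5 genes. The points of *Vegfa* nearly coincide, those of *Hif3a* and *Eno2* are spread widely, and *Cited2* and *Edn1* lie to the right of 0.

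The core of the HIF element was found in the windows of 11 of the 13 listed low-oxygen genes with a RefSeq window, and its ACGTG form in 9. The corresponding shares were 59.5% and 24.7% of the 279 lower genes with a window and 47.9% and 17.4% of the 311 higher genes. The 13 include the 5 genes described above. The median GC content of the windows was 63.7% for the 13, 60.7% for the lower and 58% for the higher genes. The part of GC content in these shares was not tested. In *Cited2*, *Bhlhe41* and *Ppp1r3c* an ACGTG match stood on both strands at overlapping positions. *Cited2*, *Edn1* and *Hif3a*, which were not lower by the test, held the core as well.

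Differences between replicates are given as a description, since every listed gene had passed the authors' test, which depends on the spread between replicates. Library 2 minus library 1 was between -0.055 and 0.16 on the log2(level + 1) scale in *scramble* and between -0.17 and -0.0028 in *Rhox6* shRNA cells. Over the 304 listed genes with a mean level of at least 5, the median absolute difference was 0.12 and 0.11, against 0.055 and 0.040 for the 5 genes, of which *Adm* had a mean level below that limit. All 5 genes were lower in *Rhox6* shRNA library 2 than in library 1, as were 500 of the 920 listed genes.

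**Figure D4:**
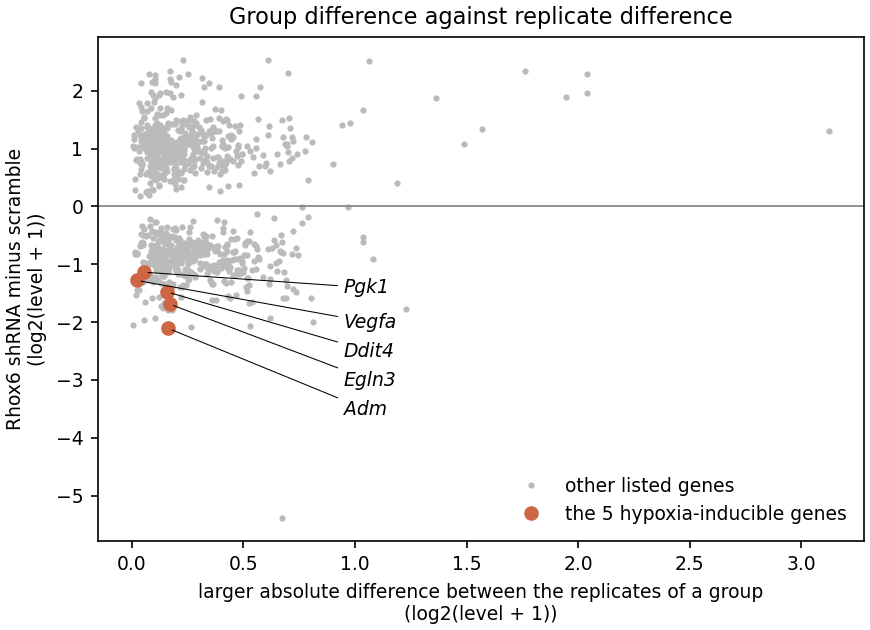
Difference between the groups (y axis, *Rhox6* shRNA minus *scramble*) against the larger absolute difference between the replicates of a group (x axis), both of log2(level + 1), for the 920 listed genes. The 5 genes, in red, lie at replicate differences of at most 0.17 and group differences of -1.14 to -2.11.

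The listed genes whose levels over the 4 libraries were most like those of each gene were found by the distance between log2(level + 1) values centred on the mean of each gene, among listed genes with a mean level of at least 5. For *Adm* they were *Chac1* and *Ddit3* (distances 0.081 and 0.14), for *Vegfa* *Car4* and *Glipr2* (0.054 and 0.057), for *Pgk1* *Uap1l1* and *Adam19* (0.073 and 0.074), for *Egln3* *Hpn* and *Gstt1* (0.12 and 0.13) and for *Ddit4* *Krt19* and *Espn* (0.11 and 0.14). None of these is among the low-oxygen genes considered. With 4 libraries in 2 groups this likeness reflects little more than the size of the difference. *Chac1* and *Ddit3* belong to the ATF4 and CHOP response, of whose 18 genes 9 were listed, *Ddit4* among them, and all 9 were lower, against 42.9% of all 920 listed genes. *Ddit3* fell from 36.64 and 36.51 to 8.12 and 8.11 and *Chac1* from 11.18 and 13.66 to 2.23 and 2.09. The others were *Nupr1*, *Vldlr*, *Phgdh*, *Herpud1*, *Psat1* and *Mthfd2*, at 4.45-, 3.81-, 2.28-, 2.24-, 1.99- and 1.97-fold lower mean levels.

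The 5 genes lie on 5 chromosomes. The usual distance between listed genes was not worked out, so only the nearest listed gene of each is given. The nearest, by the distance between annotated starts, were *Chst3*, 267.4 kb from *Ddit4* and higher in *Rhox6* shRNA cells, *F630040K05Rik*, 297.9 kb from *Vegfa* and lower, *Fndc3c1*, 298.3 kb from *Pgk1* and lower, *Gm45515*, 346.1 kb from *Adm* and lower, and *Gm38103*, 2407 kb from *Egln3* and higher. Other annotated genes lay between each pair. On chromosome X, 27 other genes were listed, of which 9 were lower and 18 higher. On chromosome 12 there were 9 lower and 23 higher of 32, and on chromosome 17 29 lower and 14 higher of 44. On chromosome 7 there were 37 lower and 30 higher of 73, and on chromosome 10 26 lower and 25 higher of 53. Of all listed genes, 42.9% were lower and 53.7% higher.

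Markers of other cell types also differed between these groups. Of 12 markers of primitive endoderm, 3 were listed (*Gata6*, *Dab2* and *Cubn*), and all 3 were lower, against 42.9% of all listed genes, with a summed level of 27.9 to 29.6 in *scramble* and 6.64 to 7.21 in *Rhox6* shRNA libraries. Of 12 trophoblast markers, 3 were listed, and they did not all go the same way. *Krt18* fell from 15.02 and 16.40 to 7.73 and 5.77 and *Krt19* from 14.75 and 14.87 to 4.53 and 4.46, whereas *Gata3* rose. *Gata3* was at 0.02 and 0 in *scramble* and at 0.92 and 0.63 in *Rhox6* shRNA libraries. *Vim*, the single listed gene of 14 fibroblast markers, and *Tek* and *Kdr*, of 11 endothelial markers, were higher. The 5 listed mESC markers were all higher, against 53.7% of all listed genes, with a summed level of 187.8 to 191.6 against 497.0 to 512.3. This sum includes *Nanog*, an exception in the study's qRT-PCR check of its candidates. The part of these cell types in the lower levels of the 5 genes was not tested. Fewer cells of a type and less RNA per cell cannot be told apart in such bulk samples.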

How the data were processed

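RNA-seq libraries of 46C mESCs were grouped by their labels, 2 *scramble* and 2 *Rhox6* shRNA. Bowtie 0.12.2 and the mm9 build appear in the submitters' processing notes without a role. Counter, annotation and test were not given in the sources used here. The authors deposited a table of 920 genes with a normalized signal per library, called the level here, in a unit that is not named. It also holds the authors' deposited group means, fold change (a ratio), log2 fold change, p-value and adjusted p-value, which were not used except to check that all 920 genes have an adjusted p under 0.05 and an absolute log2 fold change of at least 1. No counts were given, so no count test was possible.

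Levels were taken to log2(level + 1), which understates the change of low genes, and the groups were tested with limma (version 3.58.1, R 4.3.3), letting the prior variance follow the mean level, and p-values were adjusted by Benjamini-Hochberg across all 920 genes. The members and lists were chosen with earlier results of these data known. Besides the 5 genes, all listed genes of the low-oxygen, mTORC1, VEGF, adrenomedullin and ATF4 lists were named, and for each gene the 2 most alike and the nearest listed gene. Places are from GENCODE M21 on GRCm38, in which 919 of the 920 gene IDs were found, and promoter windows from RefSeq (GRCm38.p6), matched by symbol for 611 genes, 5 of 5 here. A two-sided exact permutation test of 2 against 2 libraries cannot give a p below 0.333.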

Additional observations from a re-analysis of the deposited data

How the results depend on the processing

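The 5 genes were lower in *Rhox6* shRNA cells under every alternative. After each library was scaled so that its listed genes had the same sum, the log2 difference was -1.99 for *Egln3*, -1.45 for *Pgk1*, -1.58 for *Vegfa*, -2.32 for *Adm* and -1.79 for *Ddit4*. With sums taken without the 5 genes, an alternative added after seeing the data, the differences were -2.19, -1.66, -1.78, -2.46 and -1.995 in the same order. Both scalings rest on genes selected for their change, and they moved the median of all listed genes by -0.12 and -0.21. With a pseudocount of 0.1 the difference was -2.92 for *Adm* and -1.33 for *Vegfa*. Leaving out 1 library gave -1.77 to -1.60 for *Egln3*, -1.16 to -1.11 for *Pgk1*, -1.29 to -1.27 for *Vegfa*, -2.19 to -2.03 for *Adm* and -1.56 to -1.40 for *Ddit4*. It gave 353 to 377 lower and 456 to 477 higher genes, against 395 and 494 with all libraries.

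The deviations of libraries of the same number from their group means were nearly uncorrelated (-0.044 over 920 genes). With 2 libraries a group this cannot decide whether the numbers pair the libraries, which the labels do not say. With the replicate block, 402 genes were lower and 494 higher. Of the low-oxygen genes, 14 were then lower in place of 13, with *Hif3a* added, as in both scalings. With a mean level of at least 1, 12 of 14 were lower. With unknown depth and 2 libraries a group, the precision of low levels such as that of *Adm* in knockdown cells is unknown.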
